A study of Danio rerio with 29 samples.

Results

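The difference in RNA levels between S48Y* and wild-type (WT) zebrafish in bodies was compared, gene by gene, with the same difference in brains. The comparison drew on 19 of the 29 libraries of the study: 6 of S48Y* bodies, 6 of WT bodies, 4 of S48Y* brains and 3 of WT brains. S48Y* fish were adults homozygous for a CRISPR/Cas9 allele of ccser1, and WT fish were siblings out of an incross of heterozygotes. The labels do not say which line's incross gave the WT fish. Bodies were sequenced after the brain had been removed. The other 10 libraries came from a line carrying another allele of the same gene, P471. They helped to estimate the spread between libraries, and entered the filter, the scaling and the slope of a covariate used below. Of 32520 genes in the tables, 22442 passed the filter on low counts, and these are the genes compared. The labels give neither the sex of the fish nor whether each library was a separate animal, nor whether a body and a brain came from 1 fish, so p-values measure only the spread between these libraries.

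CCSER1 is a coiled-coil, serine-rich protein that has been studied in human cells for a part in cell division. Zebrafish carry ccser1 (listed as CCSER1), CCSER2 and ccser2b in the table of names used here. A tissue can differ from another in its response to a mutation in several ways that a count table can tell apart: the same gene can move in opposite directions, it can move in 1 tissue while the other holds it steady, or it can move in 1 tissue while the other hardly holds its RNA. In RNA from a whole organ or body, fewer cells of a type and less RNA per cell cannot be told apart.

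The transcript of ccser1 was measured at 2.21, 2.96 and 5.13 CPM in S48Y* bodies, against 3.84, 5.42 and 7.32 CPM in WT bodies, where the values are the lowest, the median and the highest of the 6 libraries, in CPM (a count scaled to a common library total), as they are for every body group below. It was at 8.54, 11.3, 7.02 and 8.17 CPM in S48Y* brains, against 8.21, 8.74 and 6.01 CPM in WT brains, where brain libraries are given in the order of their numbers. The groups overlapped in both tissues. The S48Y* effect was -0.76 in bodies (adjusted p = 0.00753) and 0.19 in brains (adjusted p = 0.824), all effects being log2 values of S48Y* over WT. The difference between them, body effect minus brain effect, was -0.95 (SE 0.347, adjusted p = 0.0805), from edgeR's quasi-likelihood test with Benjamini-Hochberg adjustment, as is every adjusted p below; a gene was called where it was under 0.05. Without S48Y* body 5 the difference was -1.15 (adjusted p = 0.0313). Of the paralogs, CCSER2 had a difference of 0.33 (SE 0.159, adjusted p = 0.187) and ccser2b one of -0.82 (SE 0.305, adjusted p = 0.0856). CCSER2 was higher in every S48Y* body than in any WT body (effect 0.35, adjusted p = 0.00579). In brains ccser2b was higher in every S48Y* library than in any WT one (effect 0.55, adjusted p = 0.254). With so few brain libraries, groups can lie apart by chance. The share of all genes with groups apart was not counted, here or below. DESeq2 called the difference of CCSER2 (adjusted p = 0.0258) and not that of ccser1 (0.0899). Limma voom called that of ccser1 (0.0426) and not that of CCSER2 (0.116). Among the 100 tested genes nearest to ccser1 in the gene order of a supplied RefSeq table (assembly GRCz12tu), 7 (7.0%) had a called difference, beside 10.1% of the 15085 genes placed in that order.

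Body libraries totalled 9664847 to 11674882 counts and brain libraries 7761976 to 9521735. Skeletal muscle genes were low in brains. Their sum reached 408 to 2070 CPM in S48Y* brains and 384 to 415 CPM in WT brains, against 126069 CPM or more in every body. S48Y* brain 3 stood apart with 2070 CPM of the muscle list and 4482 CPM of the epidermis list. The other S48Y* brains reached 355 to 382 CPM of that second list and WT brains 379.6 to 951 CPM, while bodies held 11320 to 19140 CPM of it. Bodies differed in ovary content in step with the labels: the 34 tested genes of the oocyte and egg coat list summed to 19.3, 43.1 and 2036 CPM in S48Y* bodies and to 2682, 9657 and 16505 CPM in WT bodies. Every WT body had a higher mean log2 level of this list (4.81 to 7.64) than any S48Y* body (-1.57 to 4.64). Ovary content and genotype cannot be told apart by the labels. The score was used as a covariate that was constant across brains, so brain effects could change only through the estimate of spread. Of the 81 named genes with a called difference, 25 kept the call with it. Neuronal genes ran the other way, at 1999, 3004 and 3304 summed CPM in S48Y* bodies and 770.1, 1177 and 2499 CPM in WT bodies. WT bodies 1, 2 and 5 lacked the pituitary hormone transcript gh1 (0 to 0.0991 CPM), of which every S48Y* body held at least 5.45 CPM and the other WT bodies 11.2 to 16.1 CPM.

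**Figure D1:**
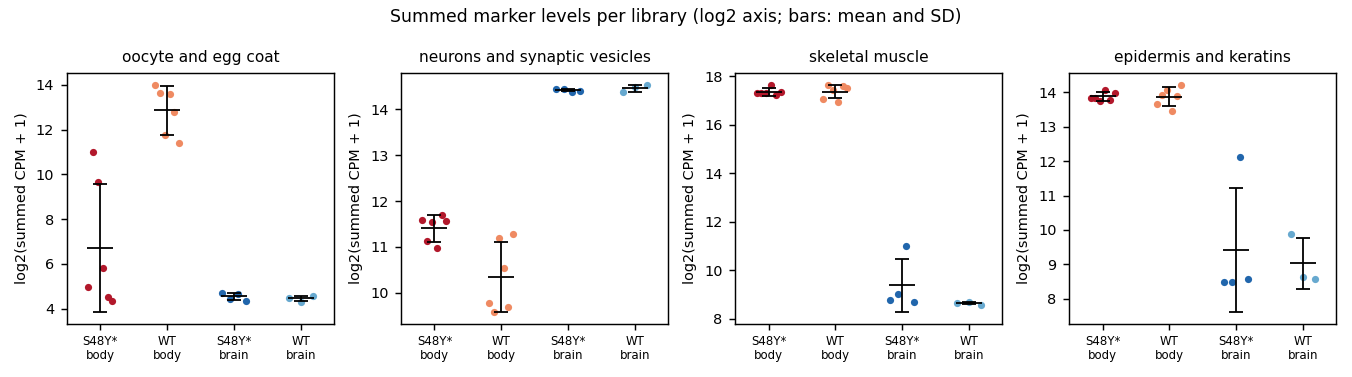
Summed levels of 4 marker lists in each library, as log2(summed CPM + 1), by group; each point is a library, and bars are the mean and SD. Oocyte genes were lower in every S48Y* body (19.3 to 2036 CPM) than in any WT body (2682 to 16505 CPM), and S48Y* brain 3 lies above the other brains for muscle and epidermis.

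The S48Y* effect differed between body and brain in 2057 of 22442 genes (9.17%). For 617 of them (2.75% of genes tested) the body effect was the higher one and for 1440 (6.42%) it was the lower one. Within bodies 8874 genes were called (39.5%; 3604 higher and 5270 lower in S48Y*), and within brains 598 (2.66%; 335 higher and 263 lower, the lower ones being 1.17%). Among 17047 genes held by both tissues, that is, with a mean of at least 1 CPM in the S48Y* or the WT libraries of each, the effects correlated across genes with Pearson's r of 0.228 and a Spearman correlation of 0.251. The median standard error was 0.178 in bodies, 0.237 in brains and 0.298 for the difference. In this fit all groups share 1 estimate of spread. A separate fit of each tissue called 7445 genes in bodies and 1935 in brains. Limma voom with weights per tissue called 8306 and 2168. Genes not called in brains here may therefore be called in those fits.

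Of the 2057 called differences, 1536 (74.7%, or 6.84% of all genes tested) belonged to genes called in body and not in brain although the brain held them, 454 with the higher and 1082 with the lower body effect. A further 129 were called in body while the brain held less than 1 CPM. In the other direction, 143 genes were called in brain and not in body although the body held them, and 36 while the body held less than 1 CPM. Opposite and called effects were found in 41 genes (0.183% of those tested), in 32 of them lower in S48Y* bodies and higher in S48Y* brains. In 15 genes both effects were called with the same sign and a called difference in size, and 157 had a called difference with no called effect in either tissue. Most genes called in both tissues moved alike: of 244 such genes 203 (83.2%) had the same sign. For 188 of these the difference was not called. The classes depended on the fit. Genes called in body alone and held by the brain numbered 1835 with limma voom and 32 with the ovary covariate. Those called in brain alone and held by the body numbered 306 and 39.

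**Figure D2:**
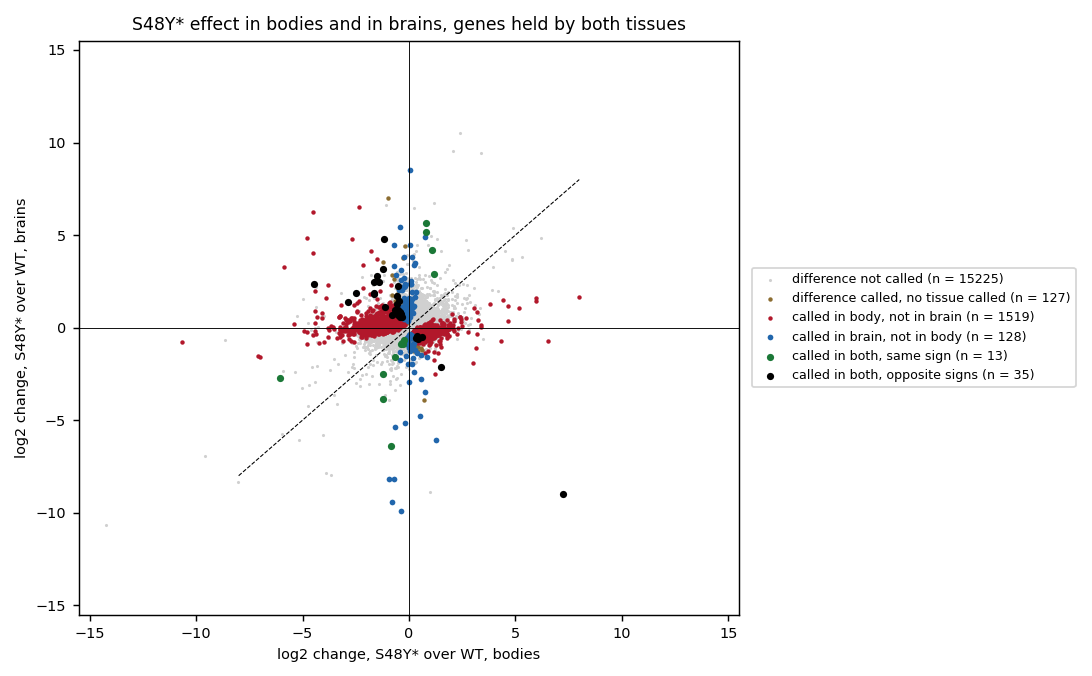
S48Y* effect in brains (vertical axis, log2 of S48Y* over WT) against that in bodies (horizontal axis), 1 point for each of 17047 genes held by both tissues, coloured by which effects were called; the dashed line marks equal effects. Genes called in bodies alone lie along the horizontal axis and outnumber those called in brains alone, along the vertical axis. With the ovary covariate, not drawn here, these classes numbered 32 and 39.

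Without single libraries the count of called differences ran from 1041 to 3439. The lowest came from omitting WT brain 2, omitting WT brain 3 gave 1169, and the highest came from omitting WT body 6. With RLE in place of TMM scaling, 961 of 2043 called differences had the higher body effect, and in bodies 5177 genes were called higher and 3891 lower; that scaling moved the median difference over all genes to 0.07, against -0.06 with TMM, so directions below hold relative to that shift. With the ovary score as a covariate 101 differences were called, 92 of them called in the same direction without it. The sign stayed the same for 99.8% of the 2057 genes, while their median size was 0.887 with the covariate and 1.29 without it and the median standard error 0.433 and 0.345. Leaving out the bodies lacking gh1, P471 bodies 2 and 5 among them, gave 807 calls, 693 of them shared.

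Among the genes with opposite effects, most of those named by the rule fell in S48Y* bodies and rose in S48Y* brains. One was nepro, whose product (nucleolus and neural progenitor protein) is needed for early embryonic development in the mouse. Its transcript was at 3.22, 4.7 and 6.42 CPM in S48Y* bodies, against 6.7, 13.5 and 18.7 CPM in WT bodies. Brains held 12.7, 21.5, 11.5 and 20.6 CPM in S48Y* brains, against 3.47, 2.91 and 2.57 CPM in WT brains. The groups did not overlap in either tissue, and within WT bodies it was lowest in bodies 3 and 6, which also had the lowest oocyte scores. The effects were -1.42 in bodies (adjusted p = 7.88e-05) and 2.47 in brains (adjusted p = 0.000101), and their difference was -3.9 (SE 0.431, adjusted p = 8.21e-06). Levels of atp5mj, a small subunit of the mitochondrial ATP synthase, went the other way: 98.6, 109 and 119 CPM in S48Y* bodies, against 81, 82.5 and 88.1 CPM in WT bodies. In brains the levels were 74.9, 69.1, 89.3 and 77.3 CPM in S48Y* brains, against 99, 109 and 113 CPM in WT brains. Again no group overlapped its counterpart, with effects of 0.37 in bodies (adjusted p = 0.000105) and -0.46 in brains (adjusted p = 0.00277) and a difference of 0.84 (SE 0.11, adjusted p = 7.14e-05).

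Several of these genes belong to light detection and the handling of retinoids. For parapinopsinb, which encodes an opsin of the pineal and parapineal organs, the levels were 0, 0 and 0.105 CPM in S48Y* bodies, against 0.0991, 0.171 and 0.941 CPM in WT bodies. Levels in brains were 3.15, 0.99, 3.06 and 4.82 CPM in S48Y* brains, against 0.105, 0.208 and 0.191 CPM in WT brains. All 4 S48Y* brains were above the WT brains, whereas 5 of 6 S48Y* bodies had no count at all. The 1 count in S48Y* bodies and 20 in WT bodies put the body ratio at 20.8-fold lower, with an exact 95% interval for counting error of 3.33 to 863; the effect was 4.06 in brains (adjusted p = 0.00181) and the difference -7.69 (SE 1.14, adjusted p = 0.000283). Transcripts of gucy2f, a guanylate cyclase of photoreceptors, stood at 0.211, 0.431 and 1.06 CPM in S48Y* bodies, against 0.903, 1.36 and 3.07 CPM in WT bodies. In brains the levels were 1.93, 2.34, 4.45 and 2.84 CPM in S48Y* brains, against 0.21, 0.728 and 0.572 CPM in WT brains. Brain groups were apart and body groups overlapped. Its difference was -4.13 (SE 0.645, adjusted p = 0.000491). Both genes listed as ABCA4, the retinoid transporter of photoreceptor outer segments, moved in the same manner, and their groups did not overlap in either tissue. The first (ENSDARG00000057169) was at 0.0963, 0.159 and 0.422 CPM in S48Y* bodies, against 0.451, 1.15 and 1.88 CPM in WT bodies. Levels in brains were 4.58, 4.68, 4.94 and 6.19 CPM in S48Y* brains, against 1.68, 0.832 and 1.62 CPM in WT brains. Body minus brain, it came to -4.37 (SE 0.578, adjusted p = 7.57e-05). The second (ENSDARG00000062661) had a difference of -3.52 (SE 0.513, adjusted p = 0.000249), with effects of -1.65 in bodies (adjusted p = 0.000231) and 1.87 in brains (adjusted p = 0.00904). Any reads shared between the pair could not be told apart.

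The other named genes with opposite effects had varied roles. GCN1, an activator of the kinase that senses amino acid shortage, was at 113, 128 and 152 CPM in S48Y* bodies, against 145, 159.5 and 202 CPM in WT bodies. Brain libraries held 115, 103, 108 and 102 CPM in S48Y* brains, against 58.9, 63.8 and 67.7 CPM in WT brains. Brains did not overlap and bodies did. The difference was -1.14 (SE 0.175, adjusted p = 0.000434). PLEKHG5, an exchange factor for small GTPases known from motor neuron disease, had a difference of -1.29 (SE 0.191, adjusted p = 0.000289), with effects of -0.52 in bodies (adjusted p = 0.000635) and 0.76 in brains (adjusted p = 0.00565). KIF7, a kinesin of Hedgehog signalling in cilia, had one of -1.18 (SE 0.195, adjusted p = 0.000897), with -0.41 in bodies (adjusted p = 0.00601) and 0.78 in brains (adjusted p = 0.00562). HK2, the hexokinase that opens glycolysis in muscle, was the glycolysis gene with the smallest p and had effects of -1.14 in bodies (adjusted p = 4.03e-05) and 1.13 in brains (adjusted p = 0.0497). The difference was -2.27 (SE 0.366, adjusted p = 0.000705); none of its groups overlapped.

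The following 3 genes fall outside the rule and were chosen after their values were seen. parp9, an ADP-ribosyltransferase of interferon responses, was at 0.556, 0.739 and 1.16 CPM in S48Y* bodies, against 13, 18.7 and 21.9 CPM in WT bodies. Brain levels were 1.32, 1.44, 1.19 and 2.41 CPM in S48Y* brains, against 0.736, 0.208 and 0 CPM in WT brains. S48Y* bodies lay far below and S48Y* brains above their WT groups without overlap. Its difference was -6.79 (SE 0.692, adjusted p = 4.94e-06). ppdpfa was at 65.9, 95.3 and 136 CPM in S48Y* bodies, against 94.5, 144 and 179 CPM in WT bodies. Brains held 28.8, 23.9, 24.5 and 27.3 CPM in S48Y* brains, against 6.63, 3.85 and 6.01 CPM in WT brains, with overlap in bodies only and a difference of -2.76 (SE 0.338, adjusted p = 2.24e-05). The unnamed gene ENSDARG00000108525 changed places between tissues: it had 2.78, 2.02, 2.06, 1.27, 1.92 and 1.58 CPM in S48Y* bodies and 0 counts in all WT bodies, and 0 counts in all S48Y* brains and 5.47, 6.76 and 7.34 CPM in WT brains. With each empty group set to 3 counts over its libraries, the level was at least 35.9-fold higher in S48Y* bodies and at least 93.2-fold lower in S48Y* brains.

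**Figure D3:**
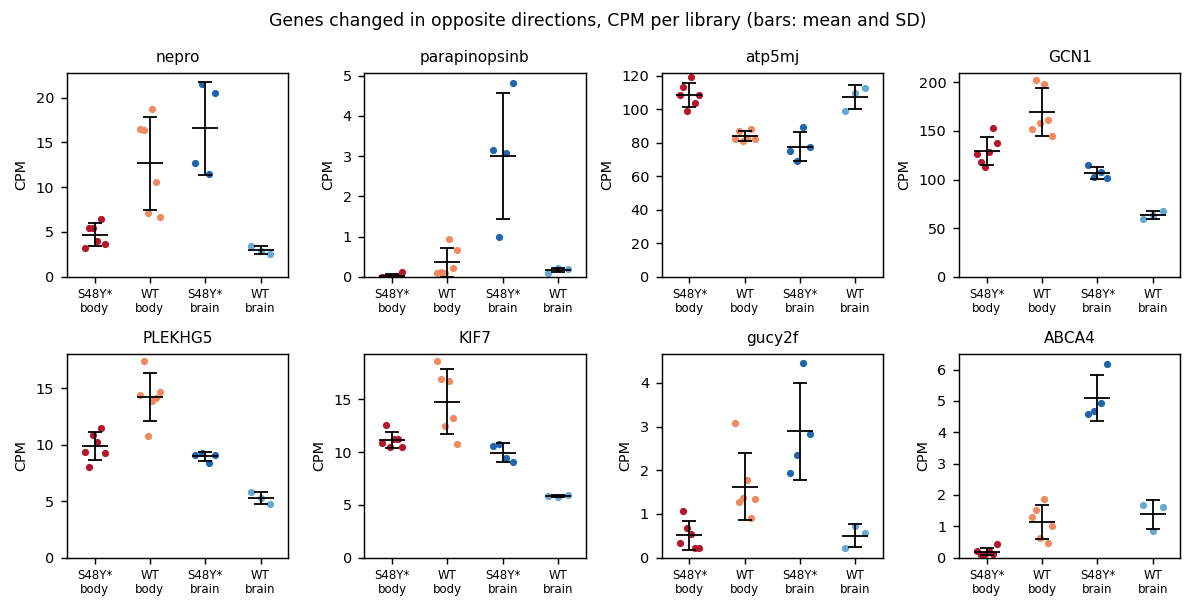
Levels in CPM of 8 genes with opposite S48Y* effects, by library and group; bars are the mean and SD. On average all but atp5mj are lower in S48Y* than in WT bodies and higher in S48Y* than in WT brains; atp5mj is the reverse.

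The ovary covariate was constant across brains, so brain calls were bound to stay nearly as they were. With it the brain effect was called for 40 of the 41 opposite genes and the body effect for 3. Those 3 were ENSDARG00000108525, parp9 and si:dkeyp-80d11.13, the last also named after its values were seen, and they alone counted as opposite in that fit. The difference itself was still called with the covariate for 18 of the 41, among them nepro (adjusted p = 0.00541), atp5mj (0.0052), GCN1 (0.0052), PLEKHG5 (0.0109), parapinopsinb (0.0218), ppdpfa (0.00372) and the first ABCA4 gene (0.0183). It was not called for gucy2f (0.0895), KIF7 (0.108), HK2 (0.0618) and the second ABCA4 gene (0.0523). Leaving out WT brain 2 gave 20 opposite genes, leaving out WT brain 3 gave 26, and leaving out S48Y* brain 2 gave 27.

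In the brain the genes called there and not in bodies fell into 58 with the higher body effect, that is, lower in S48Y* brains, and 85 with the lower one. The largest named fall was in cbln13, a member of the cerebellin family of secreted proteins related to complement C1q. It was at 0.203, 0.09, 0.0989 and 0.172 CPM in S48Y* brains, against 8.1, 1.87 and 6.2 CPM in WT brains. Bodies were at 6.22, 8.53 and 12.3 CPM in S48Y* bodies, against 7.17, 9.86 and 11.6 CPM in WT bodies. Every S48Y* brain was below every WT brain, while the body groups overlapped. Its difference was 4.94 (SE 0.576, adjusted p = 1.33e-05), from effects of -0.2 in bodies (adjusted p = 0.545) and -5.14 in brains (adjusted p = 1.09e-06). SLC5A11, a sodium-coupled inositol transporter, fell to 0.102, 0.18, 0.297 and 0.516 CPM in S48Y* brains, against 2.31, 2.91 and 1.53 CPM in WT brains. Bodies held 14.5, 18.2 and 24.2 CPM in S48Y* bodies, against 16.4, 19.7 and 22.7 CPM in WT bodies. Brain groups were apart and body groups overlapped. Body minus brain, it came to 2.92 (SE 0.396, adjusted p = 0.000105).

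The other falls named by the rule were in CHORDC1, a co-chaperone of HSP90 (-1.38 in brains, difference 1.77 (SE 0.267, adjusted p = 0.00033)), csgalnact1b, an enzyme of chondroitin sulfate synthesis (-3.5, difference 4.23 (SE 0.644, adjusted p = 0.00039)), the zinc finger gene ZNF648 and ugt5g1, a glucuronosyltransferase (-1.51, difference 1.36 (SE 0.231, adjusted p = 0.00112)). ZNF648 was at 0, 0, 0.0989 and 0 CPM in S48Y* brains, against 1.68, 0.937 and 0.381 CPM in WT brains; its 1 count in S48Y* brains and 29 in WT brains make the ratio 41.8-fold lower (exact 95% interval 6.93 to 1710, counting error only), and bodies held 28.5, 31 and 49 CPM in S48Y* bodies, against 16.7, 24.1 and 28.2 CPM in WT bodies. S48Y* brains lay below WT brains without overlap for all 4 genes. In bodies, CHORDC1 and ZNF648 were higher in every S48Y* library than in any WT library without being called (adjusted p = 0.0629 and 0.0534).

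Genes that rose in S48Y* brains alone included rdh5 and saga. rdh5, a retinol dehydrogenase of the retinal pigment epithelium in mammals, was at 9.15, 3.78, 6.52 and 5.85 CPM in S48Y* brains, against 0.53, 0.208 and 0.0953 CPM in WT brains. Bodies were at 0.634, 1.14 and 2.5 CPM in S48Y* bodies, against 0.991, 1.3 and 1.88 CPM in WT bodies. saga, an arrestin of photoreceptors, was at 52.6, 30.9, 53.1 and 53.1 CPM in S48Y* brains, against 1.89, 0.937 and 1.91 CPM in WT brains. Bodies were at 0.106, 1.12 and 2.45 CPM in S48Y* bodies, against 0, 0.519 and 1.9 CPM in WT bodies. In both, S48Y* brains stood above WT brains with no overlap and bodies overlapped, with differences of -4.43 (SE 0.558, adjusted p = 3.56e-05) and -4.14 (SE 0.768, adjusted p = 0.00264). Rises were also called for gpr55a, a lipid-sensing receptor (3.8 in brains, difference -4.02 (SE 0.751, adjusted p = 0.00264)), dnase1l4.2, a DNase (2.37, difference -2.35 (SE 0.449, adjusted p = 0.00299)), HMGXB3, an HMG-box gene (1.11, difference -1.48 (SE 0.289, adjusted p = 0.00333)), and cmya5, a muscle protein of the sarcomere (3.37, difference -3.12 (SE 0.611, adjusted p = 0.00344)). For cmya5 the brains were at 4.07, 8.37, 5.24 and 5.16 CPM in S48Y* and 0.631, 0.52 and 0.477 CPM in WT, so that the rise was not that of the muscle-rich S48Y* brain 3 alone. All 6 genes had brain groups without overlap, which follows in part from their choice by the smallest adjusted p.

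The differences of cbln13, SLC5A11, CHORDC1, csgalnact1b, ZNF648, rdh5, gpr55a and cmya5 were also called with the ovary covariate, with adjusted p from 0.000333 to 0.0309. Those of saga (0.0754), dnase1l4.2 (0.0634), HMGXB3 (0.125) and ugt5g1 (0.053) were not. Of the 143 genes called in brain and not in body, the count became 68 when WT brain 3 was omitted, 77 for WT brain 2 and 93 for S48Y* brain 2.

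Photoreceptor genes are carried in the brain by the pineal organ, whose photoreceptors also make melatonin at night. Of 83 genes matched to the list of the photoreceptor cascade, 55 passed the filter on low counts; 35 of the 55 rose in S48Y* brains and none fell, beside 5 that rose and 3 that fell in S48Y* bodies. Called in brains were 63.6% of the 55, beside 2.66% of all genes, and in bodies 14.5%, beside 39.5%. For 22 of the 55 (40.0%, beside 9.17% of all genes) the difference was called, 21 with the lower body effect and 1 with the higher. Of the 22, 14 were called in brain while the body held less than 1 CPM. The filter keeps a gene that reaches enough counts in 1 group only. Members could therefore pass through the S48Y* brains alone, and how many did was not counted. With a filter of 1 CPM in 3 libraries of each tissue, 11 differences were called. The median effect was 0.15 in bodies and 3.31 in brains, and the median difference -2.7, beside -0.06 over all genes tested. Their summed level was 172, 208 and 217 CPM in S48Y* bodies and 139, 159 and 201 CPM in WT bodies, and ranged from 1082 to 1379 CPM in S48Y* brains and from 704 to 797 CPM in WT brains. The brain groups did not overlap. PDE6C, the cone phosphodiesterase, was at 12.6, 8.55, 14.6 and 15.4 CPM in S48Y* brains, against 0.736, 0.416 and 0.667 CPM in WT brains. Bodies were at 0.107, 0.253 and 0.963 CPM in S48Y* bodies, against 0.316, 0.656 and 1.09 CPM in WT bodies. The effects differed by -5.12 (SE 0.617, adjusted p = 2.1e-05). Brain groups were apart and body groups overlapped, bodies averaging under 1 CPM. With the ovary covariate 8 of the 55 differences were called, all with the lower body effect, and without single libraries 15 to 25.

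Of the 7 genes of melatonin synthesis 3 had a called difference (42.9%, beside 9.17% of all genes), all with the lower body effect. In bodies 2 fell (28.6%, beside 39.5% of all genes) and in brains 2 rose (28.6%, beside 2.66%). aanat2, the enzyme that sets the nightly rhythm of melatonin in the fish pineal, was at 8.44, 4.95, 5.34 and 5.76 CPM in S48Y* brains, against 1.05, 0.832 and 0.667 CPM in WT brains. Bodies were at 0.106, 0.254 and 0.445 CPM in S48Y* bodies, against 0.198, 0.764 and 1.0 CPM in WT bodies. It rose in brains (effect 2.83) without overlap and overlapped in bodies. The difference was -4.03 (SE 0.695, adjusted p = 0.00124), which was also called with the ovary covariate (adjusted p = 0.0211). TPH1, the first enzyme of serotonin and melatonin synthesis, fell in bodies by 2.42, at 0.951, 1.11 and 1.37 CPM in S48Y* bodies, against 0.738, 6.09 and 11.3 CPM in WT bodies. It was at 13, 11.6, 9.79 and 9.98 CPM in S48Y* brains, against 5.68, 8.43 and 3.62 CPM in WT brains. The brain effect of 0.91 was not called, and the brain groups did not overlap. Its difference was -3.33 (SE 0.643, adjusted p = 0.00316), and 0.324 was the adjusted p with the covariate.

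**Figure D4:**
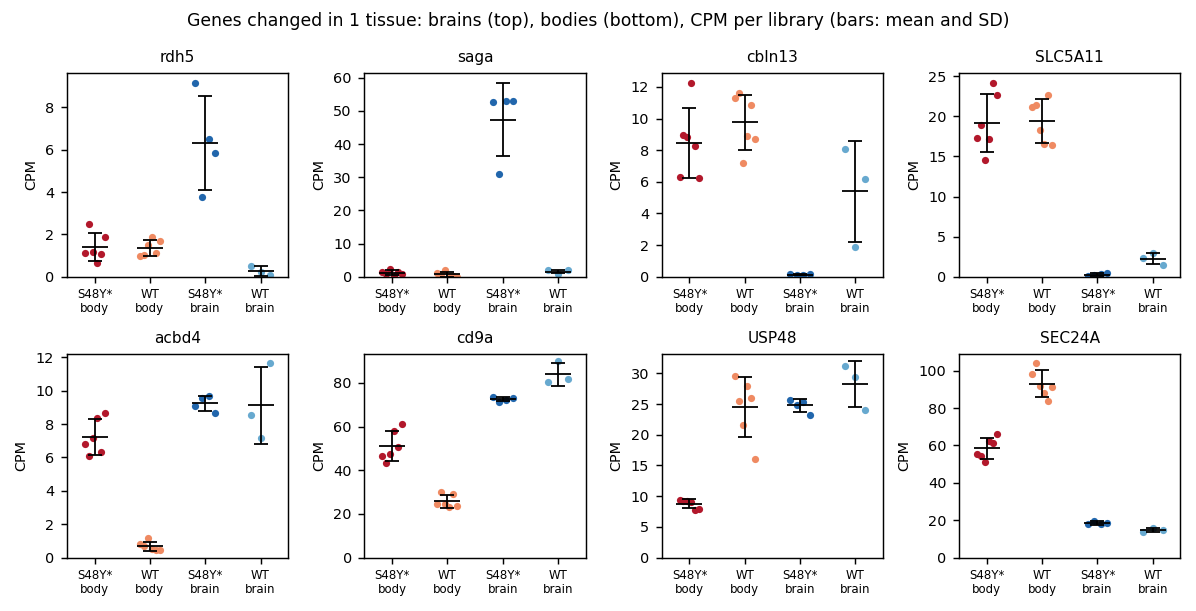
Levels in CPM of 8 genes by library and group, with mean and SD: 4 called in brains and not in bodies (rdh5, saga, cbln13 and SLC5A11) and 4 called in bodies and not in brains (acbd4, cd9a, USP48 and SEC24A). In the upper row S48Y* and WT bodies overlap while brains are apart. In the lower row the bodies are apart, and so are the brains of cd9a and SEC24A.

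Genes of oxidative phosphorylation, the respiratory chain and ATP synthase of mitochondria, had the higher body effect wherever edgeR called the difference. Of 93 members 38 fell in brains and none rose, while in bodies 25 fell and 5 rose. This was 40.9% called in brains, beside 2.66% of all genes, and 32.3% in bodies, beside 39.5%. The difference was called for 15 (16.1%, beside 9.17% of all genes), each with the higher body effect. The median effects were -0.15 in bodies and -0.41 in brains. UQCRH, a hinge subunit of complex III, was at 85.8, 77, 76.1 and 82.8 CPM in S48Y* brains, against 112, 118 and 128 CPM in WT brains. Bodies were at 105, 115 and 139.8 CPM in S48Y* bodies, against 98.1, 114 and 121 CPM in WT bodies. UQCRQ, another subunit of that complex, was at 45.3, 40.4, 40.5 and 49.7 CPM in S48Y* brains, against 62.6, 72.9 and 74.6 CPM in WT brains. Bodies were at 62.4, 71 and 90.4 CPM in S48Y* bodies, against 65.6, 73.2 and 84.2 CPM in WT bodies. S48Y* brains lay below WT brains without overlap in both and bodies overlapped, with differences of 0.67 (SE 0.138, adjusted p = 0.00494) and 0.65 (SE 0.149, adjusted p = 0.00914). The summed level of the list was 8406 to 8992 CPM in S48Y* brains and 9795 to 11933 CPM in WT brains. With RLE scaling 41 differences were called, all in the same direction, and in bodies 14 members rose and 9 fell. DESeq2 called 58, of them 57 with the higher and 1 with the lower body effect. Omitting 1 library gave 6 for S48Y* brain 2, 9 for S48Y* brain 4 or S48Y* body 4, 24 for WT brain 1, 4 for WT brain 2 and 5 for WT brain 3. With the ovary covariate edgeR called 0, with 33 at an unadjusted p under 0.05, and the adjusted p was 0.0728 for UQCRH and 0.078 for UQCRQ.

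Without the ovary covariate, bodies held most of the genes that were called in 1 tissue and not in the other. With it, 32 genes were called in body alone and 39 in brain alone, each held by the other tissue. USP48, a ubiquitin protease, was at 7.7, 9.07 and 9.45 CPM in S48Y* bodies, against 16.1, 25.8 and 29.6 CPM in WT bodies. Levels in brains were 25.7, 24.9, 25.3 and 23.2 CPM in S48Y* brains, against 31.2, 29.3 and 24 CPM in WT brains. SEC24A, a coat protein of vesicles leaving the endoplasmic reticulum, was at 51, 58.6 and 66.2 CPM in S48Y* bodies, against 83.9, 91.8 and 104 CPM in WT bodies. Brain libraries held 17.9, 19.7, 17.9 and 18.7 CPM in S48Y* brains, against 13.7, 16 and 14.5 CPM in WT brains. Bodies did not overlap in these genes, and the brain effects of USP48 (-0.19) and SEC24A (0.33) were not called. For SEC24A every S48Y* brain was above every WT brain. Their differences were -1.3 (SE 0.201, adjusted p = 0.000443) and -1.0 (SE 0.157, adjusted p = 0.000491).

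The remaining named falls were in TBCCD1, a centrosomal protein (-1.4 in bodies, difference -2.54 (SE 0.405, adjusted p = 0.000618)), ninl, a centrosomal protein that anchors microtubules (-2.59, difference -2.93 (SE 0.467, adjusted p = 0.000618)), and ripor3, of the RIPOR family (-2.0, difference -2.81 (SE 0.462, adjusted p = 0.000897)). In WT bodies 3 and 6 their levels were 2.74 and 4.13, 17.0 and 14.6, and 27.7 and 25.4 CPM, below those of every other WT body. The brain effects of TBCCD1 (1.14, adjusted p = 0.0601) and ripor3 (0.81, adjusted p = 0.307) were not called. Every S48Y* brain was above every WT brain for both, which with so few brain libraries can arise by chance. Of these 5 falls SEC24A alone was also called with the ovary covariate (adjusted p = 0.00456); the other adjusted p ran from 0.0754 to 0.151.

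Of 63 cell division genes 53 fell in S48Y* bodies and none rose, and none was called in brains by edgeR or DESeq2 (0 at an unadjusted p under 0.05). The share called in bodies was 84.1%, beside 39.5% of all genes. The difference was called for 31 (49.2%, beside 9.17% of all genes), all with the lower body effect. The median effect was -1.53 in bodies and 0.08 in brains. PRC1, which bundles microtubules of the central spindle, was at 2.32, 4.16 and 5.49 CPM in S48Y* bodies, against 7.15, 25.1 and 36.7 CPM in WT bodies. The brains were at 12.8, 7.74, 12.8 and 6.54 CPM in S48Y* brains, against 8.52, 8.74 and 9.15 CPM in WT brains. Its difference was -2.7 (SE 0.556, adjusted p = 0.00489). bub1, a kinase of the spindle checkpoint, had effects of -1.48 in bodies (adjusted p = 4.29e-05) and 0.81 in brains (adjusted p = 0.361). Between tissues it differed by -2.29 (SE 0.481, adjusted p = 0.00541). The summed level of the list was 806, 981 and 1490 CPM in S48Y* bodies and 1435, 3993 and 5477 CPM in WT bodies, the groups overlapping slightly, and 269.8 to 315 CPM in S48Y* and 267 to 300.4 CPM in WT brains. The oocyte list moved with it: 33 of its 34 members fell in S48Y* bodies, and none was called in brains, where their sum was 19.4 to 25.2 CPM in S48Y* and 18.9 to 22.7 CPM in WT. Its part in the cell division result was not tested beyond the covariate. Omitting WT brain 2 gave 17 called cell division differences, omitting WT brain 3 gave 18, and omitting the bodies lacking gh1 gave 5. With the ovary covariate edgeR called 0 (9 at an unadjusted p under 0.05), and the median body effect was -0.64. No member was then called in bodies (13 at an unadjusted p under 0.05).

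For the oocyte list itself the difference was called for 4 members (11.8%, beside 9.17% of all genes). With the ovary covariate, a score made from these same genes, edgeR called 0 (1 at an unadjusted p under 0.05), and the median difference was 0.21, against -4.28 without it. Leaving out 1 library moved that number by more than 1.5 times in 15 of 19 fits, within 0 (without WT brain 2) to 6. LHX8, a transcription factor of oocytes, was at 2.03, 3.9 and 10.8 CPM in S48Y* bodies, against 11.3, 30.6 and 46.2 CPM in WT bodies. This gave a difference of -2.8 (SE 0.772, adjusted p = 0.0241); MOS, the kinase of meiotic arrest, was at 0.111, 0.584 and 4.34 CPM in S48Y* bodies, against 7.26, 25 and 43.2 CPM in WT bodies. The difference was -4.27 (SE 1.19, adjusted p = 0.0252). Body groups did not overlap for either. With the covariate the adjusted p was 0.725 for LHX8 and 0.58 for MOS. The calls also ended for LHX8 without WT brain 2 (adjusted p = 0.0791) or S48Y* brain 1 (0.0514), and for MOS without S48Y* brain 2 (0.065), S48Y* brain 3 (0.0579), WT brain 2 (0.0657) or WT brain 3 (0.052). Of 17 tested genes of the testis germ cell list, 8 fell and 1 rose in bodies (52.9%, beside 39.5% of all genes). The difference of tsga10 was -6.07 (SE 1.27, adjusted p = 0.00541) and that of SPATA4 4.96 (SE 1.14, adjusted p = 0.00893); SPATA4 had 40 counts in S48Y* bodies and 1 in WT bodies, a ratio of 38.4-fold higher (exact 95% interval 6.51 to 1550, counting error only). Neither was called with the ovary covariate (adjusted p = 0.316 and 0.0614), nor was any other gene of that list.

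Of 31 sterol synthesis genes 20 fell in S48Y* bodies (64.5%, beside 39.5% of all genes called there) and none rose. In brains edgeR called none (0 at an unadjusted p under 0.05). The difference itself was called for 5 (16.1%, beside 9.17% of all genes), all with the lower body effect, and the medians were -0.71 in bodies and -0.06 in brains. GGPS1, which makes geranylgeranyl diphosphate, was at 15.8, 16.7 and 22.1 CPM in S48Y* bodies, against 19.7, 65.5 and 80.6 CPM in WT bodies. Brain levels were 37.3, 38.3, 35.7 and 30.8 CPM in S48Y* brains, against 26.4, 33.9 and 36.7 CPM in WT brains. Its difference was -1.76 (SE 0.395, adjusted p = 0.00803). MVK, mevalonate kinase, was at 2.11, 3.29 and 4.14 CPM in S48Y* bodies, against 5.9, 11.4 and 12 CPM in WT bodies. Brains held 4.17, 3.96, 3.95 and 4.9 CPM in S48Y* brains, against 3.89, 3.95 and 5.43 CPM in WT brains. Between tissues it differed by -1.56 (SE 0.368, adjusted p = 0.0105). GGPS1 overlapped between bodies, with WT bodies 3 and 6 at 19.7 and 21.0 CPM, and MVK did not. Omitting WT body 6 gave 10 and omitting WT body 4, WT body 5, WT brain 1 or WT brain 3 gave 3. With the ovary covariate edgeR called 0 differences (6 at an unadjusted p under 0.05), so neither GGPS1 nor MVK (adjusted p = 0.368) was called. In bodies 1 of the 31 was then called, as lower (9 at an unadjusted p under 0.05).

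Among the rises in S48Y* bodies, acbd4, an acyl-CoA binding protein of peroxisomes, was at 6.07, 6.97 and 8.65 CPM in S48Y* bodies, against 0.447, 0.609 and 1.16 CPM in WT bodies. In brains the levels were 9.05, 9.54, 9.69 and 8.69 CPM in S48Y* brains, against 8.52, 7.18 and 11.6 CPM in WT brains. The lowest S48Y* body was above the highest WT body. This gave a difference of 3.36 (SE 0.407, adjusted p = 2.1e-05), from 3.38 in bodies (adjusted p = 7.74e-09) and 0.02 in brains (adjusted p = 1). cyp2p7, a cytochrome P450 in the list of alcohol and aldehyde metabolism, was at 24.9, 27.3 and 38.2 CPM in S48Y* bodies, against 4.41, 4.91 and 5.98 CPM in WT bodies. Levels in brains were 7.73, 7.38, 8.8 and 6.71 CPM in S48Y* brains, against 8.21, 7.6 and 5.53 CPM in WT brains. The effects differed by 2.39 (SE 0.332, adjusted p = 0.000121). cd9a, a tetraspanin, was at 43.2, 49 and 61.1 CPM in S48Y* bodies, against 23.2, 24.4 and 29.9 CPM in WT bodies. Brain libraries held 73.5, 71.4, 72.2 and 72.9 CPM in S48Y* brains, against 80.3, 89.9 and 81.6 CPM in WT brains. The difference was 1.2 (SE 0.163, adjusted p = 0.000109). Bodies did not overlap for these genes. For cd9a the brain effect (-0.21) was not called, and every S48Y* brain was below every WT brain.

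Rises were also called for rab11bb, a GTPase of recycling endosomes (1.58 in bodies, difference 1.71 (SE 0.251, adjusted p = 0.000255)), ARGLU1, a splicing factor (0.78, difference 0.8 (SE 0.134, adjusted p = 0.000955)), and sst1.2, a somatostatin precursor (1.16, difference 1.72 (SE 0.287, adjusted p = 0.000955)). Each was higher in every S48Y* body than in any WT body. The brain effect of sst1.2 (-0.56, adjusted p = 0.204) was not called, and every S48Y* brain was below every WT brain. The differences of acbd4, cyp2p7, cd9a, rab11bb and ARGLU1 were called with the ovary covariate, with adjusted p of 0.00324, 0.0109, 0.0212, 0.0378 and 0.0357; that of sst1.2 was not (0.0811). All 6 were called in each of the 19 fits that left out 1 library. They were chosen for the smallest adjusted p in these same libraries, so this follows in part from the choice. The class of 1536 genes called in body and not in brain held 2350 when WT body 3 was omitted, 2743 for WT body 6, 786 for WT brain 2, 902 for WT brain 3, and 490 for all bodies lacking gh1.

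The title of the study names alcohol response. Of 40 genes of alcohol and aldehyde metabolism 5 had a called difference (12.5%, beside 9.17% of all genes), 1 higher and 4 lower. In bodies 3 rose and 12 fell (37.5%, beside 39.5% of all genes), and edgeR called none in brains (7 at an unadjusted p under 0.05). The shares of the list lay near those of all genes, and with the ovary covariate 1 difference was called, that of cyp2p7. cyp2p10, of the same family as cyp2p7, fell in bodies. It was at 2.11, 3.4 and 4.28 CPM in S48Y* bodies, against 6.93, 17.4 and 19.2 CPM in WT bodies, without overlap, and at 4.68, 4.32, 4.94 and 4.39 CPM in S48Y* brains, against 5.47, 4.58 and 5.91 CPM in WT brains. Its difference was -1.99 (SE 0.36, adjusted p = 0.002) (0.16 with the ovary covariate). With RLE scaling 9 of the 40 rose and 9 fell in bodies. Of 39 tested alcohol receptors and channels 11 rose in bodies (28.2%) and none fell. Of all genes 39.5% were called in bodies, 16.1% as higher. A difference was called for 1 of the 39 (2.56%, beside 9.17% of all genes). This was CRH, the stress hormone corticoliberin, at 2.0 (SE 0.587, adjusted p = 0.0322). Its call ended without any 1 of 10 libraries, with adjusted p up to 0.0647, and with the ovary covariate (0.56). In this list edgeR called 0 differences with the covariate (2 at an unadjusted p under 0.05) and 0 without the bodies lacking gh1 (4 at an unadjusted p under 0.05). With the covariate no member was called in bodies (3 at an unadjusted p under 0.05).

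Without the ovary covariate, neuronal genes rose in S48Y* bodies, while 1 was called in brains. Of 56 tested members of the neuronal list 33 rose in bodies and none fell, 1 rose in brains, and 5 differences were called, 4 of them with the higher body effect; the medians were 0.94 in bodies and 0.0 in brains. In bodies 26 of 54 glutamate genes rose and 2 fell, and 14 of 42 GABA and glycine genes rose. Each of these lists had 1 called difference. The share called in bodies was 58.9% for neuronal, 51.9% for glutamate and 33.3% for GABA and glycine genes, beside 39.5% of all genes. Of all genes 16.1% were called higher there. With the ovary covariate edgeR called no neuronal, glutamate or GABA and glycine gene in bodies (0, 3 and 4 at an unadjusted p under 0.05). Without the covariate, differences were called for 8.93%, 1.85% and 2.38% of these lists, beside 9.17% of all genes. Of 92 neurodevelopmental disorder orthologues 42 rose and 12 fell in bodies (58.7%, beside 39.5% of all genes). For 9 the difference was called (9.78%, beside 9.17% of all genes), 4 with the higher and 5 with the lower body effect. Of these 92 edgeR called 0 differences with the ovary covariate (9 at an unadjusted p under 0.05), and the median difference was -0.02. In bodies 1 of the 92 was then called. Within WT bodies the neuronal sum was 770.1 to 875 CPM in bodies 1, 2 and 5, which lacked gh1, and 1478 to 2499 CPM in bodies 3, 4 and 6. The part of this in the neuronal result was not tested beyond leaving those bodies out. Without the bodies lacking gh1, 0 of the 56 neuronal differences were called by edgeR (18 at an unadjusted p under 0.05), as with the ovary covariate (0), while limma voom on all libraries called 17. Leaving out 1 library moved the neuronal count by more than 1.5 times in 13 of 19 fits, within 2 to 8. Among neurodevelopmental orthologues MED13, a Mediator subunit, fell in bodies by 0.38 (difference -0.5 (SE 0.117, adjusted p = 0.00971), and 0.344 with the covariate), and the count of 9 ran from 2 without WT brain 2 to 20 without WT body 6.

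**Figure D5:**
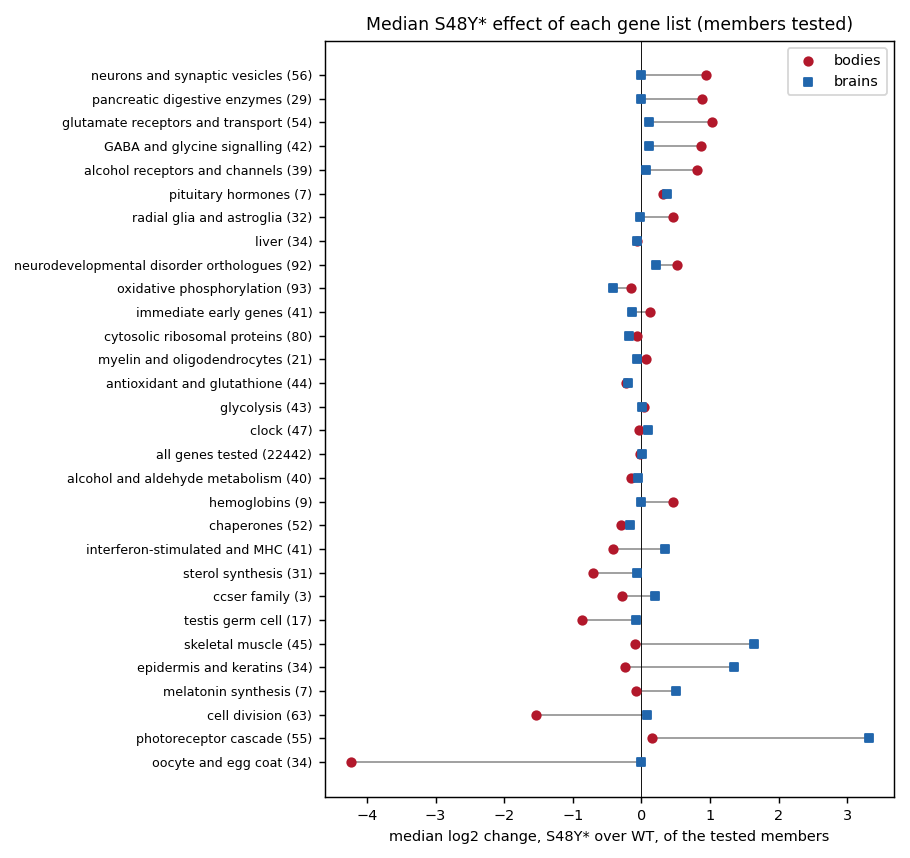
Median log2 effect of S48Y* over WT in bodies (circles) and in brains (squares) for each gene list, with the number of members tested, ordered by the median difference. The median of photoreceptor genes was 0.15 in bodies and 3.31 in brains. Members of that list could pass the filter on low counts through the S48Y* brains alone. The median of oocyte genes was -4.23 in bodies and 0.0 in brains, and that of cell division genes -1.53 in bodies and 0.08 in brains.

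Some genes moved alike in both tissues and by different amounts. PTK2B, a focal adhesion kinase of neurons and blood cells, rose in both: it was at 6.33, 9.03 and 10.7 CPM in S48Y* bodies, against 2.3, 4.49 and 5.25 CPM in WT bodies. The brains were at 18.9, 18.5, 18.8 and 19 CPM in S48Y* brains, against 1.16, 0.624 and 1.24 CPM in WT brains. No groups overlapped, and the rise was 1.08 in bodies and 4.2 in brains. Body minus brain, it came to -3.12 (SE 0.362, adjusted p = 1.33e-05). UBTD1, a ubiquitin domain protein, rose by 0.82 in bodies; in brains it had 173 counts in S48Y* and 3 in WT, a ratio of 40.0-fold (exact 95% interval 13.5 to 196, counting error only). The difference was -4.36 (SE 0.678, adjusted p = 0.000468). CDNF, a neurotrophic factor of dopamine neurons, was at 12.2, 15.1 and 18.5 CPM in S48Y* bodies, against 20.4, 27 and 31.6 CPM in WT bodies, and had 1 count in S48Y* and 17 in WT brains, 24.5-fold lower (3.84 to 1020). The effects differed by 3.2 (SE 0.711, adjusted p = 0.00888). COX5A, a subunit of cytochrome c oxidase, fell by 0.21 in bodies and 0.69 in brains. The difference was 0.48 (SE 0.12, adjusted p = 0.0137), a call that was lost without WT brain 2 (adjusted p = 0.0587) or WT brain 3 (0.052). PTK2B (0.000779) and UBTD1 (0.0052) kept a called difference with the ovary covariate, and CDNF (0.076) and COX5A (0.239) did not. The body effects of PTK2B and UBTD1 were then not called, and their brain effects, which the covariate could hardly move, were. In that fit the class of genes changed the same way held 0 genes. Without the covariate, the class held 8 genes when WT body 1 or WT body 2 was left out, and 9 for S48Y* body 1 or S48Y* body 3.

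Muscle and epidermis genes were high in 1 S48Y* brain. In bodies myhc4, a myosin heavy chain, was at 129, 265 and 1994 CPM in S48Y* bodies, against 6370.4, 15639.5 and 21425 CPM in WT bodies. The groups did not overlap, and among S48Y* bodies the highest levels, 1994 and 961 CPM, were those of bodies 2 and 3, which had the highest oocyte scores. It was at 0.814, 1.35, 587 and 1.38 CPM in S48Y* brains, against 1.26, 4.16 and 0.381 CPM in WT brains, where S48Y* brain 3 alone was high; the difference was -10.78 (SE 2.39, adjusted p = 0.00805), and -3.84 (adjusted p = 0.0918) without that brain. myha, another myosin heavy chain, fell in bodies by 2.68. Its difference was -7.46 (SE 1.85, adjusted p = 0.0142) and was not called without S48Y* brain 3 (0.439), WT brain 2 (0.056) or WT brain 3 (0.052). Myosin heavy chains are near copies that may share reads. cyt1, a keratin, was at 48.2, 131 and 159 CPM in S48Y* bodies, against 1.9, 3.55 and 5.64 CPM in WT bodies. Brain levels were 0.407, 0.63, 0.297 and 0.344 CPM in S48Y* brains, against 0, 0.728 and 0.381 CPM in WT brains. Body minus brain, it came to 4.75 (SE 1.14, adjusted p = 0.0118) with no overlap in bodies, lost without WT brain 2 (0.163). PKP1, a plakophilin, reached 12.7 CPM in S48Y* brain 3, and its difference of -2.24 (SE 0.646, adjusted p = 0.0301) was lost without that library (0.128), WT brain 1 (0.0583), WT brain 2 (0.0645) or WT brain 3 (0.0889). None of these was called with the ovary covariate (adjusted p from 0.101 to 0.312).

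Among other lists, the clock had 6 called differences of 47 members (12.8%, beside 9.17% of all genes), and 1 with the ovary covariate. CRY1 and cry4, cryptochromes in this list, fell in bodies and were not called in brains. CRY1 was at 59.8, 66.8 and 80.8 CPM in S48Y* bodies, against 107, 116 and 163 CPM in WT bodies. Brains held 229.8, 239, 243 and 244 CPM in S48Y* brains, against 233, 246 and 271 CPM in WT brains. The effects differed by -0.81 (SE 0.185, adjusted p = 0.00888), which was also called with the ovary covariate (0.028); cry4 had one of -0.94 (SE 0.225, adjusted p = 0.0114), not called with it (0.16). The clock count was 3 without WT body 1, WT body 4, S48Y* brain 2, S48Y* brain 3 or WT brain 3. fosaa, an immediate early gene, rose in bodies by 1.78 (difference 1.84 (SE 0.373, adjusted p = 0.00414)). DNAJA2, an HSP40 co-chaperone, rose by 0.56 (difference 0.64 (SE 0.143, adjusted p = 0.00767)), and PRDX4, a peroxiredoxin of the endoplasmic reticulum, fell by 0.82 (difference -0.89 (SE 0.191, adjusted p = 0.0064)). Body groups were apart for all 5 genes. PFKM, the phosphofructokinase of muscle, rose in brains, at 2.34, 0.54, 3.06 and 0.688 CPM in S48Y* brains, against 0.21, 0.104 and 0 CPM in WT brains; its 68 and 3 counts make 15.7-fold (exact 95% interval 5.16 to 78.1, counting error only). Its difference was -3.67 (SE 0.817, adjusted p = 0.00756). Glycolysis had 8 called differences of 43 (18.6%, beside 9.17% of all genes), 4 in each direction. Without WT brain 2 it had 3 and without WT brain 3 it had 2. Among glycolysis genes edgeR called 0 with the ovary covariate (10 at an unadjusted p under 0.05). The adjusted p was then 0.221 for fosaa, 0.169 for DNAJA2, 0.244 for PRDX4 and 0.0895 for PFKM.

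Chaperones had 3 called differences of 52, immediate early genes 3 of 41, antioxidant genes 1 of 44, interferon and MHC genes 2 of 41, myelin genes 3 of 21, radial glia genes 5 of 32, liver genes 3 of 34, skeletal muscle 6 of 45, epidermis 2 of 34 and ribosomal proteins 1 of 80. Lists of pancreatic enzymes, pituitary hormones and hemoglobins had 0 called differences by edgeR (0, 0 and 1 at an unadjusted p under 0.05) and 1, 0 and 2 by DESeq2. Of pancreatic enzymes 6 of 29 rose in bodies (20.7%, beside 16.1% of all genes called higher there). Without the bodies lacking gh1, edgeR called 4 pancreatic differences, all with the higher body effect, and the median body effect of that list was 2.73, against 0.88 with all libraries. In each list of this paragraph edgeR called 0 with the ovary covariate. Beside 9.17% of all genes, the counts of these smaller lists say little, and each of the 10 lists with a call moved by more than 1.5 times when some single library was left out.

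Calls of several list genes ended when single libraries were left out; the values in brackets are log2 differences, body effect minus brain effect. Of the 81 named genes with a called difference, 57 were called in all 19 fits with 1 library left out. Of the others not yet described, zwi, a myelin gene of fish (0.66), and tapbp.1, a chaperone of MHC class I (-1.28), were each lost in 13 fits. GRID1, a glutamate receptor (1.63), was lost in 9. f2, prothrombin (2.4, 3 counts in S48Y* brains and 13 in WT brains, 6.25-fold lower with an exact 95% interval of 1.72 to 34.2, counting error only), hsp90aa1.1 (-2.14) and ifi44f1 (-1.97) were lost in 4 fits each, and GLRB, a glycine receptor (1.05), and ptgdsb.1 (-1.96) in 3. sv2ba, a synaptic vesicle protein (-3.51), SNCG, a synuclein (0.88), RPL22L1, a ribosomal protein (0.83), and mcl1a, a survival factor (-0.76), were lost in 2. SOX10 (1.2), GFAP (0.98) and ahsg1 (1.22) were lost without WT brain 2 (adjusted p = 0.0747, 0.105 and 0.0872). Leaving out WT brain 2 ended 19 calls, WT brain 3 ended 15, S48Y* brain 3 ended 9, S48Y* brain 2 ended 7 and WT brain 1 ended 6; each other library ended at most 5. None of the genes named in this paragraph was called with the ovary covariate, the smallest adjusted p being 0.0634 for hsp90aa1.1.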

How the data were processed

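RNA was sequenced from zebrafish brains and from bodies without the brain, as paired 150 bp reads of polyadenylated RNA, per the labels' protocols. The deposited tables hold raw read counts per gene made by the authors. STAR, GRCz10 and GRCz11 are named without roles in the submitters' processing notes. No source used here names the counter, the annotation or whether strand was used, so reads of overlapping or antisense genes cannot be told apart.

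All 29 libraries entered 1 fit of 6 group means with edgeR 4.0.16 in R 4.3.3 (filterByExpr, TMM factors, robust quasi-likelihood F test, Benjamini-Hochberg adjustment over 22442 genes, threshold 0.05). The tested quantity was the S48Y* minus WT difference in bodies minus that in brains; the standard error is the absolute log2 value over the square root of F. A tissue held a gene at 1 CPM or more. Gene symbols came from a supplied table that named 29201 of 32520 genes. On data simulated from these libraries, 36% of 2-fold and 80% of 4-fold changes placed in bodies were recovered. For those placed in brains the shares were 38% and 82%, of 50 genes for each size and tissue. The run held 22134 genes, the changed ones among them, and gave 6 false calls. The number of false calls where bodies differ in ovary content and gh1, as here, was not tested. Intervals and floors of counts are exact 95% binomial ones or 3 counts over a group, and cover counting error only.

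Named genes were ccser1 and its paralogs, 10 genes changed in opposite directions with the smallest value of the larger adjusted p, 6 higher and 6 lower genes for each tissue called alone with the smallest adjusted p of the difference, 4 genes changed the same way, and up to 2 called members of each list, passing over clone names and bare identifiers. Members and lists were chosen with earlier results of these data known. Apart from ccser1 and its paralogs, named genes were picked by p in these same libraries. Groups without overlap and calls kept without 1 library follow in part from that choice. The share of all genes with groups apart was not counted. Alternatives used RLE factors, DESeq2 1.42.0, limma 3.58.1 voom, other filters, fewer libraries, the ovary score and replicate blocks. No pair of libraries of a group agreed within sampling noise. Some genes that the rule names are left out of the text and figures.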

Additional observations from a re-analysis of the deposited data

Results flagged for a closer look

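The S48Y* effect differed between bodies and brains in 2057 genes by the test of the difference itself. Among the named genes with opposite effects the differences, body effect minus brain effect on the log2 scale, were -3.90 for nepro, -7.69 for parapinopsinb, 0.84 for atp5mj, -1.14 for GCN1, -1.29 for PLEKHG5, -1.18 for KIF7, -4.13 for gucy2f, and -4.37 and -3.52 for the pair of ABCA4 genes.

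Single libraries stood apart from the rest of their group in 30 of 339 tests, where chance gives about 5%. In S48Y* brain 3 they were myhc4 (587 CPM), myha (15.9 CPM), PKP1 (12.7 CPM), PRDX4 (31 CPM), ptgdsb.1 (631 CPM), ZNF648 (0.0989 CPM), CDNF (0.0989 CPM), f2 (0.297 CPM) and the summed muscle list (2070 CPM) and epidermis list (4480 CPM). In the other S48Y* brains they were ABCA4 (3.86 CPM) and dnase1l4.2 (2.54 CPM) in brain 1, saga (30.9 CPM) and the summed photoreceptor (1080 CPM) and oxidative phosphorylation (8410 CPM) lists in brain 2, and bub1 (3.35 CPM) in brain 4.

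In S48Y* body 4 they were cyp2p7 (38.2 CPM), ZNF648 (49.0 CPM) and the sums of the photoreceptor (172 CPM), muscle (206000 CPM), neurodevelopmental (2840 CPM), liver (48200 CPM) and glycolysis (16900 CPM) lists. The other S48Y* bodies gave parapinopsinb in body 6 (0.105 CPM), ARGLU1 in body 3 (191 CPM), sst1.2 in body 5 (17.3 CPM), and ripor3 (24.3 CPM) and tsga10 (2.31 CPM) in body 2. WT bodies gave SPATA4 in body 1 (0.0991 CPM) and f2 in body 5 (421 CPM). A few counts in 1 library with zeros in the others always give the largest value of this test. That was so for parapinopsinb, CDNF and SPATA4, and in brains for ZNF648 and f2. These therefore do not mark a library as apart.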

How the results depend on the processing

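All settings were planned. The count of called differences, 2057, was 3112 with DESeq2, 1302 with only the S48Y* and WT libraries, 84 against a minimum change of 2-fold, 101 with the ovary score and 807 without bodies low in gh1. The 8874 body calls became 1022 with the 2-fold minimum, 237 with the ovary score and 4109 without bodies low in gh1. The 598 brain calls became 1187 with DESeq2, 383 with only these libraries, 2168 with limma voom, 87 with the 2-fold minimum and 1935 in a separate fit of brains. Opposite genes, 41, numbered 103, 130, 2 and 3 with DESeq2, voom, the 2-fold minimum and the ovary score. Genes called in body alone, 1536, numbered 969, 35, 32 and 490 with only these libraries, the 2-fold minimum, the ovary score and no bodies low in gh1. Genes called in brain alone, 143, numbered 344, 93, 306, 15 and 39 with DESeq2, only these libraries, voom, the 2-fold minimum and the ovary score. Genes changed the same way, 15, numbered 8 with only these libraries, 26 with voom, 0 with the 2-fold minimum, 0 with the ovary score and 6 without bodies low in gh1. The causes were not tested.

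Leaving out 1 library gave 1041 to 3439 differences, 7181 to 10131 body calls, 281 to 694 brain calls, 20 to 55 opposite genes, 786 to 2743 called in body alone, 68 to 162 in brain alone and 8 to 18 changed the same way. Correlations of same-numbered libraries were taken after subtracting each group's mean for every gene. They ran from -0.185 to 0.295 between body groups and from -0.199 to 0.109 between brain groups. Between bodies and brains they ran from -0.030 to 0.006 in S48Y* and from -0.034 to -0.006 in WT. The numbers were therefore not taken to pair libraries. A library correlated best with its own number in 1 of 6 body pairs, in 1 of 3 brain pairs and in none between tissues. With a replicate block the count was 1677 within tissues and 1871 across them. All 81 named genes with a called difference kept its sign with the ovary score; CCSER2, not called, had 0.33 and, with the score, -0.03. Depth limits genes under 1 CPM in a tissue.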
